A study of Mus musculus with 4 samples.

Results

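The replication-dependent histone genes were taken as every gene of the deposited table whose symbol starts with Hist1h, Hist2h, Hist3h or Hist4h, which gave 68 of 25965 listed genes. By class these are 6 linker histone H1 genes, 19 H2A, 18 H2B, 12 H3 and 13 H4 genes, and by cluster 55 Hist1, 10 Hist2, 2 Hist3 and 1 Hist4 gene. The table holds RNA-seq of 4 libraries of female mouse embryonic stem cells (mESCs) from an F1 cross of the FVB and CAST strains. One group is undifferentiated cells expanded in 2i medium, harvested at day 0. The other groups were weaned into differentiation medium, transduced with a short hairpin virus on day 2, selected with puromycin from day 3 and harvested at day 6, and they carry a nonsilencing control hairpin (Nons) or 1 of 2 hairpins against the chromatin remodeller gene Smarca4 (Smarca4.4 and Smarca4.6). Each group is 1 library, and the spread between replicates is unknown. Groups follow the titles, because the genotype label of the day 6 libraries, Nons included, reads Smarcc knockdown and that of day 0 nonsilencing control.

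Replication-dependent histone genes encode the nucleosome core proteins H2A, H2B, H3 and H4 and the linker histone H1 that package newly replicated DNA. They sit in dense clusters, mostly lack introns and are transcribed mainly in S phase. Their principal mRNA ends in a short stem-loop that is bound by SLBP and carries no poly(A) tail, while some of the genes also give polyadenylated mRNA, a form known from differentiated and non-dividing cells. Replacement variants such as H3.3 and H2A.Z are instead not confined to S phase and are made from ordinary polyadenylated mRNA. The methods name a TruSeq RNA kit for the libraries, and whether poly(A) RNA was selected is not given in the sources used here.

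The 3′ stem-loop is what sets these mRNAs apart. It is shown for the 5 members that reached the level filter used below and whose transcript model holds one. In GENCODE M21 transcripts (GRCm38, the assembly of mm10), 45 of the 68 members had a 16-base match to the histone stem-loop consensus after the stop codon, in each case with 6 of 6 stem bases paired and with no mismatch. It began 21 to 58 bases after the stop codon, with a median of 31. In each sequence below, the capitals mark the stem-loop and the lower-case letters the flanking bases.
Hist1h1c: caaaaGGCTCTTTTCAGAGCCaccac
Hist3h2a: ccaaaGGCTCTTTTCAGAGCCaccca
Hist3h2ba: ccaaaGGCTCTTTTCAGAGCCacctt
Hist1h3c: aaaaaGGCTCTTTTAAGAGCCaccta
Hist1h4i: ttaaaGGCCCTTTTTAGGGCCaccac

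The stem-loop of Hist1h1c, Hist3h2a and Hist3h2ba was the most frequent, in 25 members: 3 H1, 10 H2A, 7 H2B and 5 H3 genes, but no H4 gene. The form most frequent among H4 genes, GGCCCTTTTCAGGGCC, was found in 7 of them and in no other class. Of the 23 members without a match, 15 have a transcript model that ends within 20 bases of the stop codon, before a stem-loop could be seen. In 27 members the model runs on past the stem-loop by at least 100 bases or ends in a polyadenylation hexamer (AATAAA or ATTAAA within the last 50 bases). Hist1h1c, Hist3h2a and Hist3h2ba are among them with AATAAA at 26, 34 and 27 bases from the end of the model, and Hist1h4i with ATTAAA at 21 bases. The model of Hist1h3c ends 74 bases after the stem-loop, and the 2-exon model of Hist1h2bc holds no stem-loop.

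Depth and identity of the libraries bear on every value. The day 0 library held 18599402 reads, and those of day 6 held 45759793 (Nons), 47143727 (Smarca4.4) and 36495582 (Smarca4.6), so that 3 reads, the limit that a count of 0 allows, correspond to 0.161 CPM (counts per 1000000 reads of the library total) at day 0 and to 0.0636 to 0.0822 CPM at day 6. Smarca4 stood at 131 CPM with Smarca4.4 and 174 CPM with Smarca4.6, below 229 CPM in Nons and 244 CPM at day 0. The mESC genes Nanog, Sox2, Zfp42 and Esrrb were at 445 to 999 CPM at day 0 and at 8.54 to 60.7 CPM in the day 6 libraries, whereas Pou5f1 was at 701 to 982 CPM in all 4. Of 5 fibroblast or mesenchyme markers, Col1a1, Col1a2 and Thy1 were higher in Nons than at day 0 by 2.56, 4.14 and 0.74 on the log2 scale, Vim differed by -0.28 and held most of the sum (111 CPM at day 0), the 5 summed to 118, 118, 155 and 175 CPM in the order day 0, Nons, Smarca4.4, Smarca4.6, and Col3a1 was at 0 reads at day 0. The Y-linked genes Ddx3y, Uty and Eif2s3y had 0 reads at day 0 and 10 to 107 reads in each day 6 library, although all 4 libraries are labelled female. Kdm5d, also Y-linked, had 0 reads in all 4 libraries. The part of the Y-linked reads in the values below was not tested.

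The 68 genes together gave few reads. In the order day 0, Nons, Smarca4.4, Smarca4.6, which is kept below wherever 4 values stand together, they held 461, 1886, 1776 and 1244 reads, or 24.8, 41.2, 37.7 and 34.1 CPM. Nons was therefore the highest library and day 0 the lowest. The log2 ratio of the sum was 0.73 for Nons over day 0 (95% interval 0.59 to 0.88), -0.13 (-0.22 to -0.035) and -0.27 (-0.38 to -0.17) for the Smarca4.4 and Smarca4.6 libraries over Nons. These and all later intervals are exact, compare libraries rather than conditions and reflect counting error alone. A read is not a molecule, and a fragment may have been counted at both ends, in which case these intervals are too narrow. In bulk RNA, fewer cells that express a gene and less RNA per cell cannot be told apart.

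Most members were near the limit of detection. At day 0, 15 members had 0 reads and 33 had at least 3, while in each day 6 library 57 had at least 3 reads and 3 to 6 had none. The median member had 2, 12.5, 14 and 9 reads. Only 6 members reached a mean log2 CPM of at least 0 over the 4 libraries: Hist1h1c, Hist3h2a, Hist1h2bc, Hist1h3c, Hist1h4i and Hist3h2ba. These 6 held 40.1% of the members' reads at day 0 and 54.5%, 47.6% and 46.7% in the day 6 libraries.

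Hist1h1c, which encodes the linker histone H1.2, had the most reads of all members over the 4 libraries together, although Hist3h2a had more at day 0. It gave 47 reads at day 0 (2.53 CPM), 280 in Nons (6.12 CPM), 277 in Smarca4.4 (5.88 CPM) and 176 in Smarca4.6 (4.82 CPM). All 3 day 6 libraries lay above day 0, and their counting intervals did not overlap that of day 0. The log2 ratio of Nons over day 0 was 1.28 (0.83 to 1.75), or 2.42-fold. Of 75-base windows of its transcript, 93.3% occur in no other gene, so its reads can largely be assigned to it.

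Hist3h2ba, an H2B gene on chromosome 11 (58948911 to 58949532, plus strand, mm10), showed the widest difference. It had 0 reads at day 0, 208 in Nons (4.55 CPM), 107 in Smarca4.4 (2.27 CPM) and 99 in Smarca4.6 (2.71 CPM). Against the limit of 3 reads at day 0, Nons was at least 28.2-fold higher, while the exact interval of the log2 ratio, which also takes in counting error in Nons, starts at 4.51. Both Smarca4 hairpins lay between day 0 and Nons. Without this gene the log2 ratio of the sum of the other 67 members was 0.57 (0.42 to 0.72) for Nons over day 0. The ratio for Smarca4.4 over Nons was then -0.051 (-0.15 to 0.048), an interval that includes 0.

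**Figure D1:**
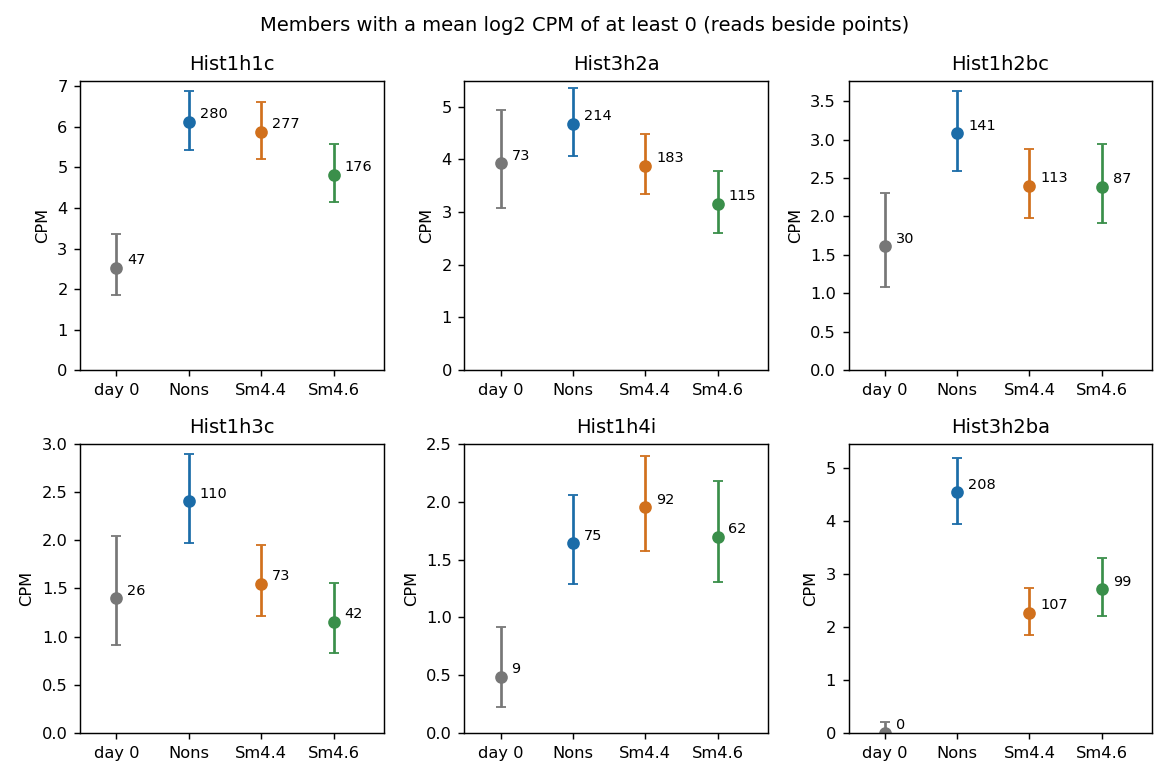
CPM of the 6 members with a mean log2 CPM of at least 0 in each library (Sm4.4 and Sm4.6 are Smarca4.4 and Smarca4.6; bars are exact 95% Poisson intervals, numbers are reads). Nons lay above day 0 in all 6 panels, by the least for Hist3h2a, and Hist3h2ba is at 0 reads at day 0.

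Hist3h2a, the H2A gene next to Hist3h2ba, had 73 reads at day 0 (3.92 CPM), 214 in Nons (4.68 CPM), 183 in Smarca4.4 (3.88 CPM) and 115 in Smarca4.6 (3.15 CPM). Its log2 ratio of Nons over day 0 was 0.25 (-0.14 to 0.66), an interval that includes 0, so the neighbouring genes of the Hist3 cluster differed in size of change. The value of Hist3h2a is uncertain, because its whole listed span of 1990 bases lies on the same strand within Trim17, whose exons cover 708 of those bases. Trim17 had 69, 189, 172 and 119 reads in the same order of libraries, close to the counts of Hist3h2a.

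The other members that reached the filter each represent another class or the same class elsewhere. Hist1h2bc (H2B) had 30, 141, 113 and 87 reads, or 1.61, 3.08, 2.40 and 2.38 CPM, and a log2 ratio of Nons over day 0 of 0.93 (0.36 to 1.55). Hist1h3c (H3) had 26, 110, 73 and 42 reads, or 1.40, 2.40, 1.55 and 1.15 CPM, with a ratio of 0.78 (0.15 to 1.46). Its Smarca4.6 level was below that of day 0, but the intervals of the levels overlapped (0.829 to 1.56 and 0.913 to 2.05 CPM). Hist1h4i (H4) had 9, 75, 92 and 62 reads, or 0.484, 1.64, 1.95 and 1.70 CPM, with a ratio of 1.76 (0.76 to 2.94), and was higher in all 3 day 6 libraries than at day 0. The median log2 difference over the 6 was 1.10, and it was the same with Hist3h2ba set to its bound, against 0.031 over the 13264 genes that reached the filter. Hist1h1c, Hist1h4i and Hist3h2ba, 3 of the 6, were at least 2-fold higher in Nons and none was at least 2-fold lower, beside 31.9% of those 13264 genes that differed at least 2-fold in either direction. A gene at 0 or few reads at day 0 reached the filter only through day 6, so this count is a description.

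A lower limit chosen after seeing the data, at least 40 reads over the 4 libraries, admitted 30 members. Of these, 18 differed at least 2-fold between Nons and day 0, beside 38.2% of the 15609 genes so admitted. They were 14 higher members, beside 23.9% of genes, and 4 lower members, beside 14.3%. The interval lay above 0 for 15 members and below 0 for 4, and the median was 0.86 against 0.073 for all genes admitted. Since day 6 contributes 3 libraries and most of the reads, the limit favours members that are high at day 6. The shares over all genes were not matched to the members for depth.

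**Figure D2:**
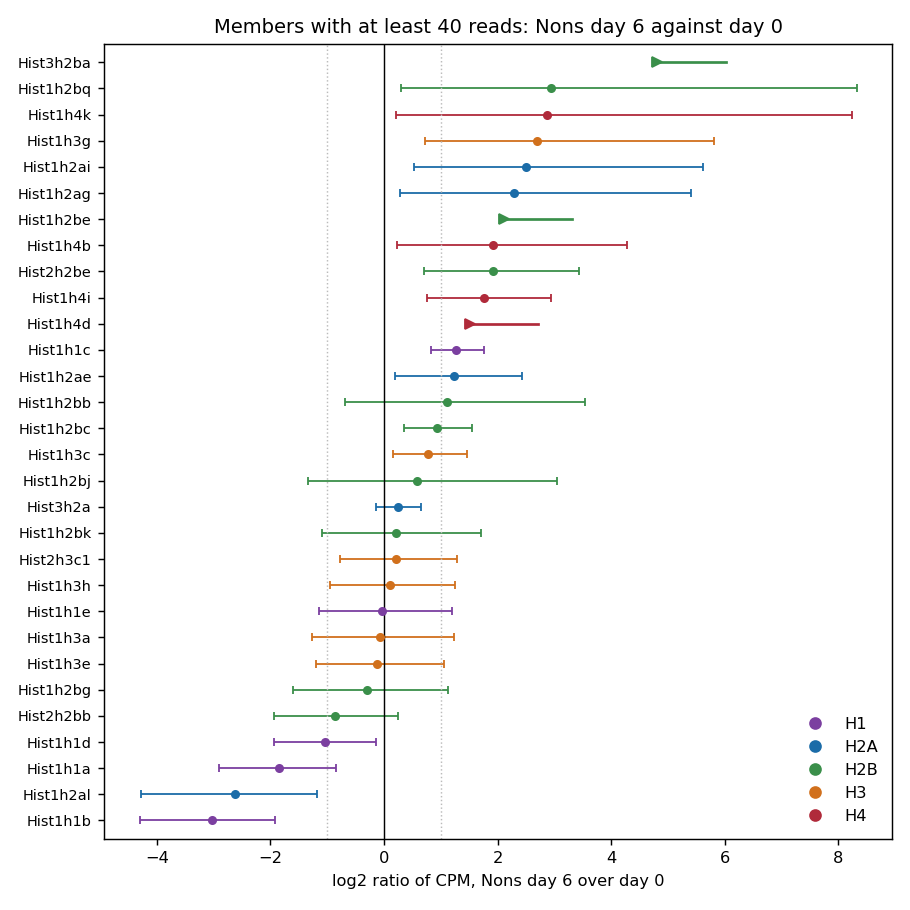
log2 ratio of CPM, Nons day 6 over day 0, for the 30 members with at least 40 reads, coloured by class, with exact 95% intervals; dotted lines mark 2-fold, and arrows start at the lower bound of the 3 members with 0 reads at day 0. The higher end holds H2B, H4, H3 and H2A genes and the lower end Hist1h1b, Hist1h2al, Hist1h1a and Hist1h1d.

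The 4 lower members were singled out after their values were seen, and 3 of them are linker histone genes. Hist1h1b, which encodes H1.5, had 30 reads at day 0 (1.61 CPM), 9 in Nons (0.197 CPM), 15 in Smarca4.4 (0.318 CPM) and 18 in Smarca4.6 (0.493 CPM), a log2 ratio of -3.04 (-4.30 to -1.92) for Nons over day 0. Hist1h1a, which encodes H1.1, had 22, 15, 22 and 12 reads, or 1.18, 0.328, 0.467 and 0.329 CPM, and a ratio of -1.85 (-2.90 to -0.84). Hist1h1d, which encodes H1.3, had 21, 25, 34 and 26 reads, or 1.13, 0.546, 0.721 and 0.712 CPM, and a ratio of -1.05 (-1.94 to -0.14). The day 0 library was the highest for each of these, the opposite order to Hist1h1c. All 3 have transcripts of which at least 98.5% of 75-base windows occur in no other gene.

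**Figure D3:**
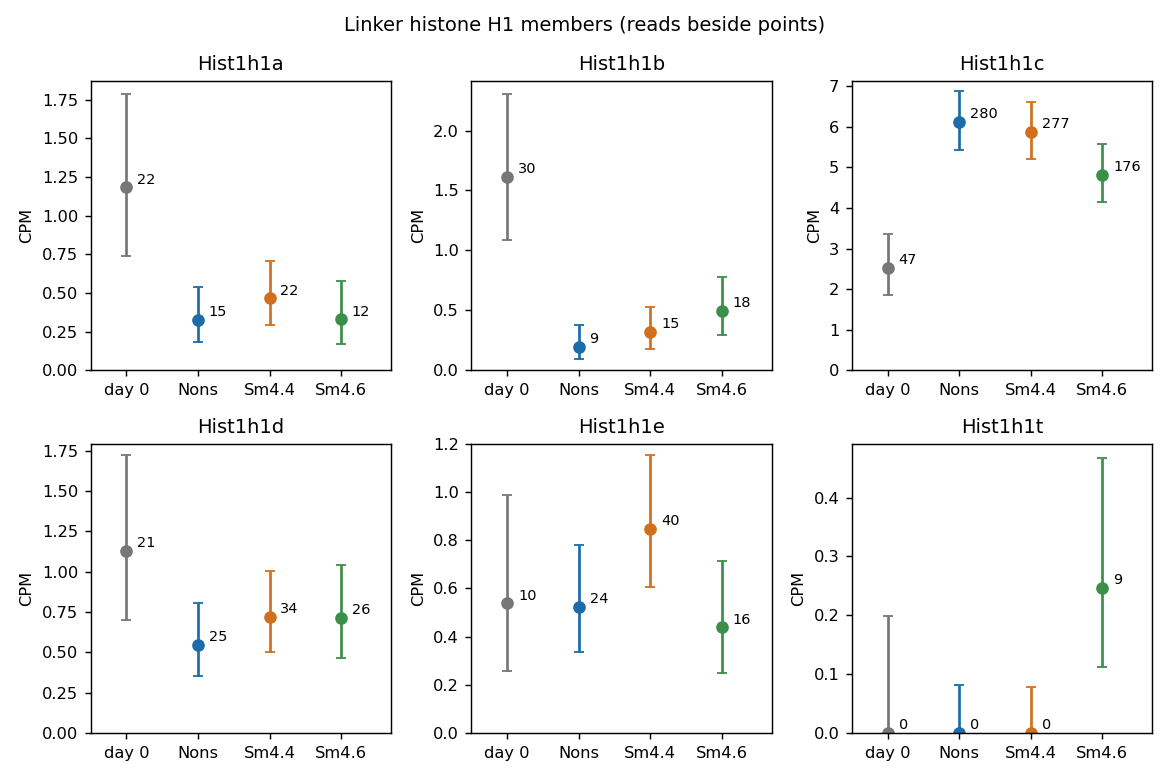
CPM of the 6 linker histone H1 members in each library (bars are exact 95% Poisson intervals, numbers are reads, each panel has its own scale). Day 0 is the highest library for Hist1h1a, Hist1h1b and Hist1h1d and the lowest for Hist1h1c, and Hist1h1t has reads only in Smarca4.6.

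Hist1h1e (H1.4) gave 10, 24, 40 and 16 reads and a ratio of -0.036 (-1.15 to 1.19) for Nons over day 0, which its depth leaves undetermined. The H1 genes as a class therefore summed to almost level values, 6.99 CPM at day 0 and 7.71 CPM in Nons, a log2 ratio of 0.14 (-0.15 to 0.44). Behind that sum Hist1h1c supplied 47 of the 130 H1 reads at day 0 and 280 of the 353 in Nons. Without Hist1h1c, a sum added after seeing the data, H1 had 83 reads at day 0 and 73 in Nons. The log2 ratio was then -1.48 (-1.96 to -1.01). Hist1h2al, the remaining lower member, is the only one of the 68 not annotated as protein coding and had 15, 6, 14 and 11 reads. It lies alone on chromosome 13 (51202688 to 51203065), apart from the other Hist1 genes.

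The other classes were all higher in Nons than at day 0. H2B summed to 82 reads at day 0 and 595 in Nons, or 4.41 and 13.0 CPM, a log2 ratio of 1.56 (1.23 to 1.91), of which Hist3h2ba gave 208 reads. H4 summed to 27 and 216 reads, or 1.45 and 4.72 CPM, a ratio of 1.70 (1.12 to 2.34). H2A had 7.04 and 9.07 CPM with a ratio of 0.36 (0.078 to 0.66), and H3 had 4.89 and 6.71 CPM with a ratio of 0.46 (0.11 to 0.81). The intervals of H2B and H4 lay above those of H1, H2A and H3, but for H2B this rested on Hist3h2ba: without it H2B gave 82 and 387 reads, a ratio of 0.94 (0.59 to 1.30), which overlaps the interval of H3. Without their most read member, H4 had a ratio of 1.67 (0.96 to 2.47), H2A of 0.49 (0.066 to 0.94) and H3 of 0.30 (-0.11 to 0.73), the last including 0. These sums without 1 gene were added after seeing the data. Among H4 genes the reads at day 0 were few, with 3 of 13 at 0.

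**Figure D4:**
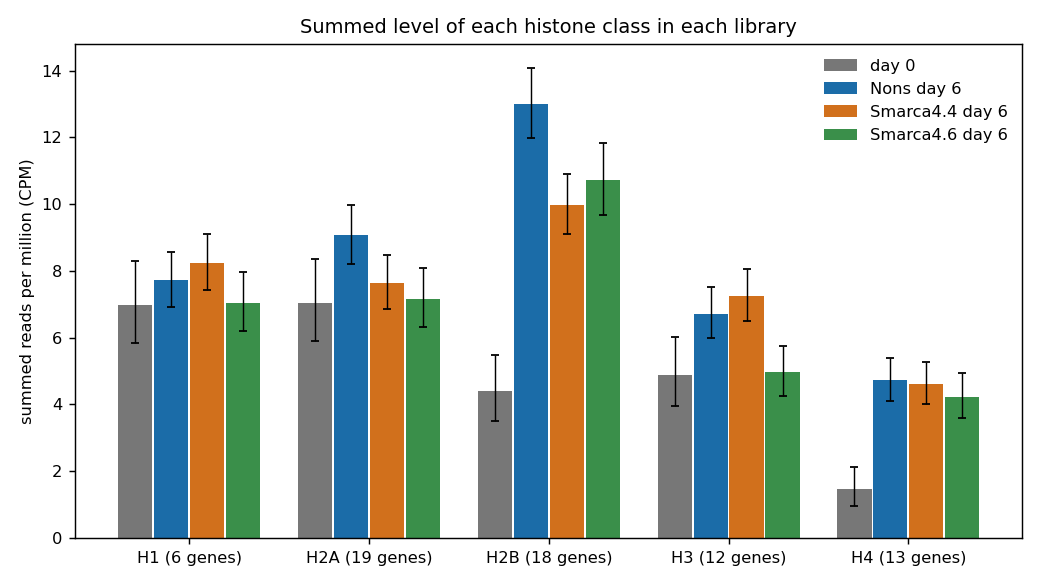
Summed CPM of the members of each histone class in each library (bars start at 0, error bars are exact 95% Poisson intervals). H2B went from 4.41 CPM at day 0 to 13.0 CPM in Nons and H4 from 1.45 to 4.72 CPM, while H1 stayed between 6.99 and 8.23 CPM in all 4 libraries.

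By position the members fall into 8 blocks separated by more than 100 kb. On chromosome 13 the largest holds 29 genes from Hist1h4h to Hist1h1a (23531044 to 23764414) and gave 11.99 CPM at day 0 and 20.5 CPM in Nons, a log2 ratio of 0.77 (0.56 to 0.99). The 18-gene block from Hist1h2bl to Hist1h2br (21715763 to 21837530) gave 3.49 and 4.85 CPM, a ratio of 0.47 (0.068 to 0.90), and the 5-gene block from Hist1h2ah to Hist1h2bj (22035113 to 22043676) gave 1.34 and 3.06 CPM, a ratio of 1.19 (0.57 to 1.86). The intervals of these 3 blocks overlapped. The Hist2 cluster on chromosome 3 gave 3.01 and 3.30 CPM, a ratio of 0.13 (-0.32 to 0.60). Its most read member, the H2B gene Hist2h2be, nevertheless had 6, 56, 43 and 47 reads, a ratio of 1.92 (0.71 to 3.43). Hist4h4, the single gene of the Hist4 cluster on chromosome 6, had 3, 8, 4 and 0 reads.

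The gene models differ in where they end and in how far their sequence is shared. The 27 members whose model runs on past the stem-loop or ends in a polyadenylation hexamer summed to 12.9 CPM at day 0 and 25.1 CPM in Nons, a log2 ratio of 0.96 (0.76 to 1.17), which without Hist3h2ba was 0.67 (0.46 to 0.88). The 21 members whose model ends shortly after the stem-loop gave 4.25 and 8.44 CPM, a ratio of 0.99 (0.64 to 1.36), and the intervals of these model classes overlapped. The 15 members whose model stops within 20 bases of the stop codon gave 3.92 and 3.65 CPM, a ratio of -0.10 (-0.51 to 0.31). Hist1h1b is one of them and gave 30 of their 73 reads at day 0 and 9 of their 167 in Nons. Their ratio thus depends in part on this gene, and it was not computed without it. Sequence is widely shared among the members: 31 have fewer than 50% of their 75-base windows to themselves, and how reads with several matches were treated is not given in the sources used here. The 9 members with at least 90% unique windows summed to 129 reads at day 0 and 416 in Nons, a ratio of 0.39 (0.10 to 0.69), and without the 8 members that overlap another listed gene the ratio was 0.89 (0.72 to 1.06).

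Per kilobase of exon the members stood below most of the replacement variants in recovered reads. The principal mRNA of the members has no poly(A) tail and that of the variants has one. Whether poly(A) RNA was selected is not given, so these values do not compare amounts of mRNA. In Nons, Hist3h2ba had 7.42 CPM per kb (6.44 to 8.49), followed by Hist1h2bc at 4.19 (3.52 to 4.94), Hist1h1c at 3.92 (3.48 to 4.41), Hist1h3c at 3.82 (3.14 to 4.599), Hist1h4i at 3.05 (2.40 to 3.83) and Hist3h2a at 2.35 (2.05 to 2.69). Only Hist3h2ba was separated from its next neighbour by its interval, and these lengths are approximate, because of the 6 only Hist1h3c has the same span in the table and the annotation. On the same scale, the H2A.Z gene H2afz had 233 CPM per kb in Nons, the H3.3 genes H3f3b and H3f3a 184 and 123, and the linker histone variant gene H1f0 65.0. At day 0 these were 210, 162, 65.5 and 16.2. The lowest of the 11 variant genes in Nons, the macroH2A genes H2afy and H2afy2 at 5.11 and 6.24 CPM per kb, lay below Hist3h2ba and above the other 5 members named here.

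Promoters of the members carry the elements known for their classes. Of the 68 members, 62 matched a RefSeq promoter (GRCm38.p6, 250 bases before to 50 after the start), and motifs were searched on both strands. CCAAT was present in 53 of 62 (85.5%) beside 37.4% of all 32851 promoters, in every H1, H2A, H2B and H3 promoter and in 3 of 12 H4 promoters. TATAAA was found in 56.5% beside 13.6% of all. The octamer ATTTGCAT, a binding element of POU factors, was found in 7 of 18 H2A and 6 of 16 H2B promoters and in no other class, beside 1.74% of all. The H1 box AAACACA was found in 5 of 6 H1 promoters, beside 7.18% of all, and a match is a description of letters, not a bound site.

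The 150 bases before the start are shown for the gene with the widest difference and for the most read H1 gene, with the motif matches in capitals. For Hist3h2ba (chr11:58948761-58948910, plus strand) they hold CCAAT on the plus strand at 127 and 76 bases before the start and on the minus strand at 144, and TATAAA on the plus strand at 39 and on the minus strand at 87. For Hist1h1c (chr13:23738657-23738806, plus strand) they hold the H1 box at 112 and CCAAT at 54 bases before the start.
Hist3h2ba: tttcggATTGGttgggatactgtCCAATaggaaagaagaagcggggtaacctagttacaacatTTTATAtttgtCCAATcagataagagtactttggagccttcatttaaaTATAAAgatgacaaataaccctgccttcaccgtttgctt
Hist1h1c: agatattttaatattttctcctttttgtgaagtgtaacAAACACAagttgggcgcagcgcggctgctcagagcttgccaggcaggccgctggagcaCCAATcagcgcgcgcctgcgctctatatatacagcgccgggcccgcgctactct

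The second question of the design is whether Smarca4 depletion changes expression at day 6, and both hairpins were set against the same Nons library. Hist3h2ba and Hist1h3c were lower with both. Hist3h2ba had 208 reads in Nons against 107 and 99, log2 ratios of -1.002 (-1.35 to -0.66) and -0.74 (-1.10 to -0.39). Hist1h3c had 110 reads against 73 and 42, ratios of -0.63 (-1.08 to -0.19) and -1.06 (-1.61 to -0.54). For each gene both hairpin libraries were below Nons and the interval of each ratio lay below 0.

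The remaining members that reached the filter changed less. Hist3h2a had ratios of -0.27 (-0.56 to 0.023) and -0.57 (-0.91 to -0.24), Hist1h2bc of -0.36 (-0.73 to 0.0049) and -0.37 (-0.77 to 0.025), and Hist1h1c of -0.059 (-0.30 to 0.19) and -0.34 (-0.62 to -0.066), for Smarca4.4 and Smarca4.6 in that order. Hist1h4i alone of the 6 had values above 0 with both, 0.25 (-0.20 to 0.71) and 0.052 (-0.46 to 0.56), and both intervals include 0. The median over the 6 was -0.32 for Smarca4.4 and -0.47 for Smarca4.6, against 0.038 and 0.064 over all genes that reached the filter. One of the 6 was at least 2-fold different with each hairpin, Hist3h2ba with Smarca4.4 and Hist1h3c with Smarca4.6, beside 1.19% and 1.82% of the 13264 genes, and none was past 2-fold with both. Hist3h2ba stood at 2.003-fold with Smarca4.4, just past that limit. The filter mean includes Nons, and Hist3h2ba reached it at a mean log2 CPM of 0.11, with its highest value, 2.18, in Nons. A member that is high in Nons is thereby favoured, so these hairpin counts and medians are a description.

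Among the 30 members with at least 40 reads, 3 were at least 2-fold higher and 3 lower with Smarca4.4, beside 3.04% and 1.31% of the 15609 genes (4.34% in either direction). With Smarca4.6, 2 were higher and 2 lower, beside 3.08% and 2.13% (5.21% in either direction). The medians of the members were -0.021 and -0.031. Of the 30 members only 6 reached a mean log2 CPM of at least 0, whereas 13264 genes did. Few reads alone give more 2-fold differences, and the shares over all genes were not matched for depth. The signs were split: 9 members were above 0 with both hairpins, 9 were below 0 with both and 12 had opposite signs. The 1 member past 2-fold in the same direction with both, Hist1h2al, had 6 reads in Nons and 14 and 11 with the hairpins, and both intervals include 0.

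**Figure D5:**
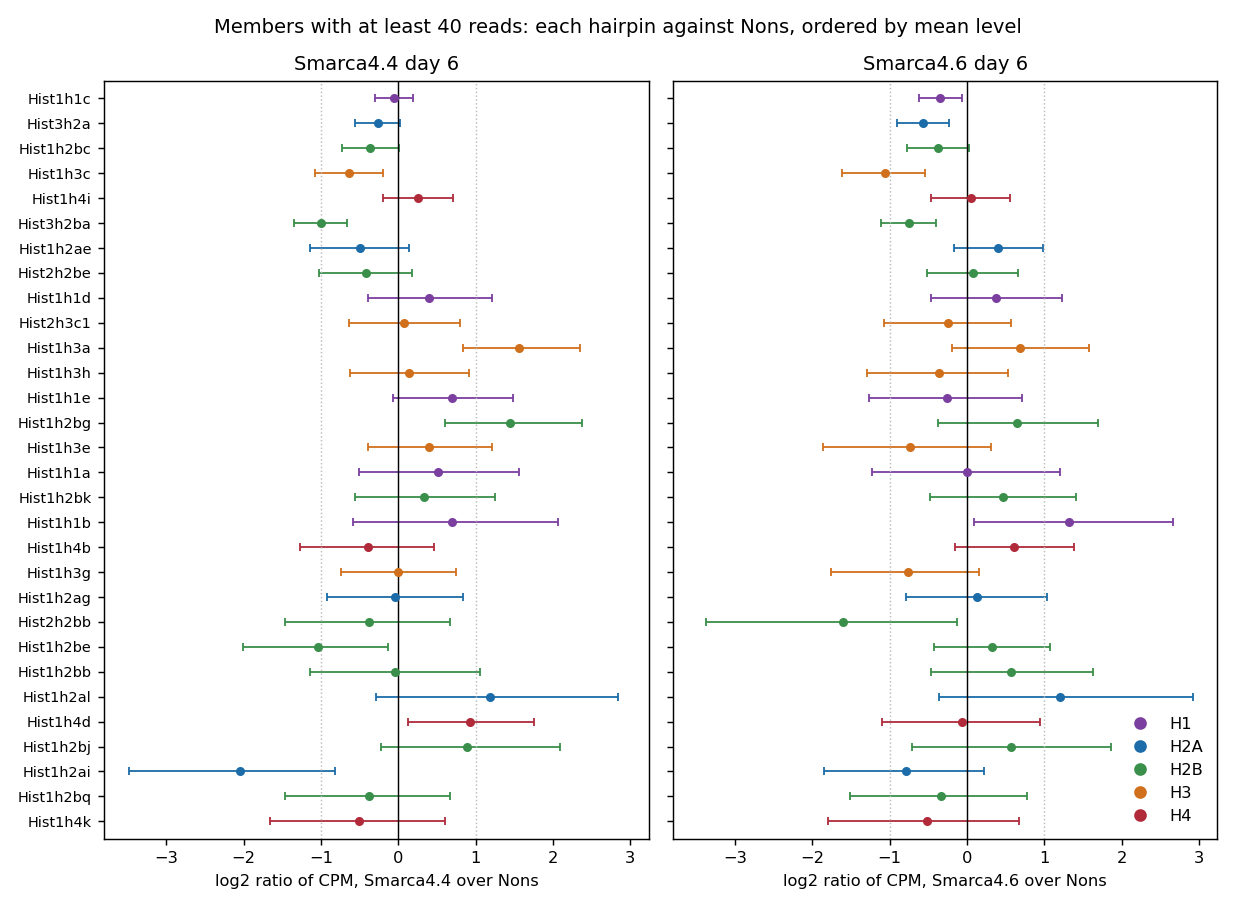
log2 ratio of CPM of each Smarca4 hairpin over Nons at day 6 for the 30 members with at least 40 reads, ordered by mean level and coloured by class, with exact 95% intervals and dotted lines at 2-fold. Hist3h2ba and Hist1h3c lie below 0 in both panels, while Hist1h3a and Hist1h2bg lie above 0 with intervals clear of 0 only for Smarca4.4.

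Some members differed with 1 hairpin, and these were chosen after their values were seen. The H3 gene Hist1h3a had 9, 21, 64 and 27 reads, with log2 ratios over Nons of 1.56 (0.83 to 2.35) and 0.69 (-0.19 to 1.58). The H2B gene Hist1h2bg had 8, 16, 45 and 20 reads, with ratios of 1.45 (0.60 to 2.37) and 0.65 (-0.37 to 1.69). For both genes the Smarca4.4 library was the highest of the 4. The ratio of Smarca4.4 over Smarca4.6 was 0.88 (0.21 to 1.58) for Hist1h3a and 0.80 (0.011 to 1.64) for Hist1h2bg. Hist1h2be, with 0, 32, 16 and 32 reads, and Hist1h2ai, with 2, 28, 7 and 13 reads, were lower with Smarca4.4, at ratios of -1.04 (-2.01 to -0.13) and -2.04 (-3.48 to -0.81). With Smarca4.6, Hist1h1b (30, 9, 15 and 18 reads) was higher at 1.33 (0.097 to 2.66), and the H2B gene Hist2h2bb (14, 19, 15 and 5 reads) was lower at -1.60 (-3.38 to -0.13). Windows that occur in no other gene were 0% for Hist2h2bb, 10.7% for Hist1h2ai and 52.6% to 100% for the others named here. Hist2h2bb also overlaps Gm20628 on the other strand, which had 15, 22, 32 and 11 reads. The reads of Hist2h2bb and Hist1h2ai can therefore not be assigned to them with certainty.

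Of the clusters with more than 1 gene, the Hist3 genes differed most from Nons. They summed to 3.92, 9.22, 6.15 and 5.86 CPM, log2 ratios over Nons of -0.58 (-0.80 to -0.37) and -0.65 (-0.90 to -0.41). The 18-gene Hist1 block around 21.7 Mb was lower too, with 4.85 CPM in Nons against 3.39 and 3.29, ratios of -0.52 (-0.82 to -0.22) and -0.56 (-0.89 to -0.23). The 29-gene block gave 20.5, 20.7 and 18.3 CPM, ratios of 0.014 (-0.12 to 0.15) and -0.16 (-0.31 to -0.018), and the 5-gene block gave 3.06, 3.86 and 3.34 CPM, ratios of 0.34 (0.010 to 0.66) and 0.13 (-0.23 to 0.49). With Smarca4.4 the interval of the 18-gene block lay wholly below that of the 5-gene block. In both of these blocks most members have fewer than 50% of their windows to themselves. How reads with several matches were treated is not given, and whether windows are shared within or across blocks was not tested. The differences of these blocks from Nons, and the contrast between them, are therefore uncertain.

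By class, H2B was lower with both hairpins, at 9.97 and 10.7 CPM against 13.0 CPM in Nons, ratios of -0.38 (-0.56 to -0.21) and -0.28 (-0.47 to -0.093). This rested on Hist3h2ba, since without it H2B had 387 reads in Nons against 363 and 292, ratios of -0.14 (-0.35 to 0.075) and -0.080 (-0.30 to 0.14). H2A was at 9.07, 7.64 and 7.15 CPM, ratios of -0.25 (-0.46 to -0.041) and -0.34 (-0.57 to -0.12). Hist3h2a, which shares its span with Trim17, gave 214 of the 415 H2A reads in Nons, and without it the ratios were -0.23 (-0.53 to 0.072) and -0.13 (-0.45 to 0.18). H3 was at 6.71, 7.23 and 4.96 CPM, and here the hairpins parted, with ratios of 0.11 (-0.12 to 0.34) and -0.44 (-0.71 to -0.17) and a ratio of Smarca4.4 over Smarca4.6 of 0.54 (0.28 to 0.81). Without Hist1h3c the H3 ratios over Nons were 0.40 (0.13 to 0.67) and -0.18 (-0.50 to 0.14). H1 and H4 had intervals that include 0 with both. The 5 H1 genes other than Hist1h1c, a subset chosen after seeing the data, summed to 83, 73, 111 and 81 reads, ratios over Nons of 0.56 (0.12 to 1.01) and 0.48 (0.0020 to 0.95). Outside the 6 members that reached the filter, the other 62 summed to 19.7 and 18.2 CPM with the hairpins against 18.8 CPM in Nons, ratios of 0.075 (-0.061 to 0.21) and -0.046 (-0.19 to 0.10). Between the hairpins, none of the 6 differed at least 2-fold, beside 0.656% of genes, and 4 of the 30 did, beside 3.4%. These shares were not matched for depth either.

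The machinery around histone supply was measured far more deeply. Between day 0 and Nons, 7 of 21 DNA replication genes were at least 2-fold lower and none higher, beside 12.3% lower and 19.6% higher of the 13264 genes, with a median log2 difference of -0.62. The largest were Rrm2 (-2.17), a subunit of ribonucleotide reductase, Pola1 (-1.80), the catalytic subunit of DNA polymerase alpha, and the replicative helicase subunits Mcm6 (-1.28) and Mcm3 (-1.22). Against the same background shares, among 16 genes of histone mRNA transcription and processing 1 was lower and none higher: Cstf2 (-1.44), which encodes a 3′ cleavage factor. Of 18 histone chaperone genes 17 were found and 1 was lower, Asf1b (-1.09), a chaperone of new H3 and H4. Pola1, Cstf2 and the chaperone gene Atrx (-0.91) lie on the X chromosome. The paper reports silencing of an X chromosome during differentiation of female mESCs, and its part in these values was not tested. The members' sum lay above day 0 in Nons, while 20 of 21 DNA replication genes lay below day 0. So did 12 of the 16 histone mRNA genes and 13 of the 17 chaperone genes. The median over all genes that reached the filter was 0.031, and the share of all genes below day 0 was not counted. A sum of reads and a count of genes are unlike measures.

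Slbp, whose product binds the stem-loop, stood at 104 CPM at day 0 and at 64.7, 81.6 and 92.6 CPM in the day 6 libraries. Npat, a coactivator of histone gene transcription, was at 85.2, 71.0, 81.3 and 79.5 CPM, and Lsm11, a component of the U7 particle that cuts histone pre-mRNA, at 19.4, 30.5, 27.0 and 27.4 CPM. Day 0 was the highest library for Slbp and the lowest for Lsm11. With the hairpins none of the genes of these lists passed 2-fold, but most lay above Nons in each list. For Smarca4.4 and Smarca4.6 these were 19 and 20 of the 21 DNA replication genes, with medians of 0.18 and 0.29. They were 13 and 14 of 16 histone mRNA genes (medians 0.19 and 0.30) and 15 and 16 of 17 chaperone genes (0.15 and 0.16). The medians over all genes that reached the filter were 0.038 and 0.064, and the share of all genes above Nons was not counted.

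Of the 11 replacement variant genes, 3 were at least 2-fold higher in Nons than at day 0 and 2 lower, beside 19.6% and 12.3% of all genes that reached the filter, with a median of 0.41. H1f0, the linker histone variant of non-dividing cells, was at 33.2, 133, 127 and 163 CPM, a log2 difference of 2.01 for Nons over day 0, in the same direction as Hist1h1c and opposite to Hist1h1a, Hist1h1b and Hist1h1d. H2afv (1.15) and H2afj (1.12) were also higher, and the genes of macroH2A1 and H2A.X, H2afy (-2.46) and H2afx (-1.01), were lower. H3f3a was at 229 and 433 CPM, a difference of 0.92, H3f3b at 483 and 547 CPM and H2afz at 374 and 414 CPM. None of the 11 differed 2-fold from Nons with either hairpin.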

How the data were processed

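The authors used trim_galore for trimming, HISAT2 per the labels (tophat or HISAT2 per the methods) for alignment of the read pairs to mm10 with strain variants masked, and SeqMonk for counting over exons. The strand setting is not given in the sources used here. The deposited values are log2 CPM, 1 column per library. Within a library the back-transformed values were whole multiples of 1 step, with 0 reads written as 0.9 of a step; all values of up to 1000 reads came out whole within 0.01. Reads and totals were recovered from the step.

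Members and gene lists were chosen with earlier results of these data known. Differences are between deposited log2 values, and sums are of recovered reads. The filter was a mean log2 CPM of at least 0, and calls were at least 2-fold. With 1 library per group no count model or other test could be run across genes, so no p-values are given. Intervals are 95% exact Poisson intervals for levels and Clopper-Pearson intervals, conditional on the summed reads, for ratios. Named genes are members that reached the filter, the most read member of each class and cluster, members past 2-fold with both hairpins, Slbp, Npat, Lsm11, H2afz, H3f3a, H3f3b, H1f0, and up to 4 genes per list past 2-fold from day 0 to Nons; others were chosen after their values were seen. Transcript features came from GENCODE M21, where all 68 members were found, 28 with the span of the table. Exon length counts annotated exons within the listed span. Alternatives were no filter, a filter at 3, adding 1 CPM before taking logs (a pseudocount), subtracting the median of autosomal genes and a sum without the most read member; those added after seeing the data are named as such. The code was tested on simulated reads. Versions were 3.11.15 for Python, 1.17.1 for scipy, 2.4.6 for numpy, 3.10.9 for matplotlib and 2.3.3 for pandas.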

Additional observations from a re-analysis of the deposited data

How the results depend on the processing

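No paired analysis was possible because no group has a second library. No member reached a filter of 3 on the mean log2 CPM, so it gave no value. With no filter, 38 of the 68 members were at least 2-fold different for Nons against day 0. They numbered 23 for Smarca4.4 and 24 for Smarca4.6 against Nons, and 24 between the hairpins, most of them with few reads. The share over all genes was not counted without a filter, so these counts cannot be read as a result about the members. With at least 40 reads, a limit added after seeing the data, they numbered 18, 6, 4 and 4 of 30. The shares over the 15609 genes so admitted, not matched for depth, were 38.2%, 4.34%, 5.21% and 3.4%. A pseudocount of 1 CPM left 0 members past 2-fold with either hairpin and 2 of 3 from day 0 to Nons, where Hist1h4i went to 0.83, and it lowered the fitted difference of Hist3h2ba from day 0 to Nons to 2.40. Centring on the autosomal median turned Hist1h4i with Smarca4.6 to -0.0097.

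The log2 ratio of the sum over all members for Nons over day 0 stayed above 0 under every alternative tried. Of those added after seeing the data, it was 0.39 over members with unique windows, 0.89 without overlapping genes, 0.34 without the 6 members that reached the filter and 0.57 without Hist3h2ba. For Smarca4.4 over Nons it turned to 0.041 over members with unique windows and 0.075 without the 6 members, and for Smarca4.6 it was -0.10 and -0.046. Without Hist3h2ba it was -0.051 (-0.15 to 0.048) for Smarca4.4, an interval that includes 0, and -0.23 (-0.33 to -0.12) for Smarca4.6. Both values without the 6 members have intervals that include 0.

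Depth is the main limit. At day 0, 15 members had 0 reads and 20 had 1 or 2, and ratios of single members with few reads span several log2 units.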

Other observations

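Genes known from the male germ line were near or below the limit of detection. Hist1h1t, the testis linker histone gene, had 0 reads at day 0, in Nons and in Smarca4.4 and 9 reads in Smarca4.6, where 3 reads are the limit, and its transcript shares no 75-base window with another gene. The testis H2A and H2B genes Hist1h2aa and Hist1h2ba, an adjacent pair on chromosome 13, had 0, 0, 1 and 3 reads and 1, 1, 3 and 0 reads at day 0, in Nons, Smarca4.4 and Smarca4.6.

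Hist1h2ac, an H2A gene with 6, 2, 14 and 1 reads, and Hist2h3b, an H3 gene with 1, 4, 15 and 4 reads, had most reads in Smarca4.4. Hist2h3b shares its span with Gm20628 on the other strand, which had 15, 22, 32 and 11 reads and also overlaps Hist2h2bb. Hist1h4b, with 3, 28, 22 and 34 reads, overlaps 4930558J22Rik on the other strand, which had 2, 19, 19 and 25 reads, and without a known strand setting the reads of each such pair cannot be told apart.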
